A study of Rattus norvegicus with 45 samples.

Results

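The 10 genes Adipoq, Lep, Retn, Cfd, Plin1, Cidec, Lipe, Pnpla2, Mgll and Abhd5, which encode adipokines, lipid droplet proteins and the enzymes of triglyceride breakdown, were read out of the expression tables by gene symbol. All 10 were found among the 20794 genes listed there, each with a single row. Empagliflozin, an inhibitor of the renal glucose transporter SGLT2, was given by gavage at 10 mg/kg a day for 30 days to male spontaneously hypertensive rats, an inbred model of hypertension, aged 8 weeks and weighing 220 to 260 g. Control rats of the same strain, sex and age received saline as the vehicle by the same schedule. RNA of white fat, brown fat, aorta, kidney, lung, brain, atrium and a tissue labelled V was sequenced, with 3 libraries per tissue and arm and 45 libraries in all, 24 from empagliflozin rats and 21 from vehicle rats. Vehicle atrium was not analysed here, so 7 tissues have both arms. No normotensive strain was analysed here, and every library carries the hypertensive background.

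Adipocytes store triglyceride in lipid droplets and release hormones into the blood. Adiponectin (Adipoq) is a hormone linked to insulin sensitivity, leptin (Lep) signals the size of the fat store to the brain, resistin (Retn) is secreted by rodent adipocytes, and adipsin (Cfd) is factor D of the alternative complement pathway. Perilipin 1 (Plin1) coats the droplet and, at rest, holds the coactivator Abhd5. Cidec lets droplets fuse and grow. On beta-adrenergic stimulation Abhd5 is released and activates Pnpla2 (adipose triglyceride lipase), which starts the breakdown of triglyceride, after which Lipe (hormone-sensitive lipase) and Mgll (monoacylglycerol lipase) remove the remaining fatty acids.

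The 250 bases upstream of the annotated start were available for 9 of the 10 genes from RefSeq on build GRCr8, and not for Lipe. They are shown, in the direction of transcription, for 4 genes whose letters match motifs of regulators of fat cell genes. The C/EBP motif TTGCNNAA, searched on both strands, was found in 3 of 9 members' windows, against 9.22% of all 33469 promoter windows of the same length, and it is in capitals in these lines.
Lep (chr4:58626288-58626537, plus strand): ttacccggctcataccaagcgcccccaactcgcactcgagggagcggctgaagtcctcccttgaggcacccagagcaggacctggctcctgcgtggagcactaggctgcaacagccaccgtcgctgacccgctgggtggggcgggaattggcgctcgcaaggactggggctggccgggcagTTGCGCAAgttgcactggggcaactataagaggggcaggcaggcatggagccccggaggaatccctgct
Plin1 (chr1:143086149-143086398, minus strand): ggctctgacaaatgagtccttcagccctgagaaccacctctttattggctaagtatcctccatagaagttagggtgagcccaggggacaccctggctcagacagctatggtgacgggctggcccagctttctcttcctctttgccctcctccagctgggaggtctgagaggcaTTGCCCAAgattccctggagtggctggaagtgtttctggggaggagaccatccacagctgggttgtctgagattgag
Cidec (chr4:148137116-148137365, minus strand): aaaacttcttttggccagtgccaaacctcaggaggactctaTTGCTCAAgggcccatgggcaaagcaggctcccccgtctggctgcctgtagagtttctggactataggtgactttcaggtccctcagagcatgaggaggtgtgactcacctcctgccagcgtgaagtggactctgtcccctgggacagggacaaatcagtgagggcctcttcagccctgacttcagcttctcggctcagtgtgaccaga
The match begins 69 bases before the start in Lep, where it reads as the same motif on both strands, 77 bases before it in Plin1 and 209 bases before it in Cidec. In Retn the capitals mark the nuclear receptor half-site AGGTCA, again searched on both strands, 169 and 7 bases before the start.
Retn (chr12:6508524-6508773, plus strand): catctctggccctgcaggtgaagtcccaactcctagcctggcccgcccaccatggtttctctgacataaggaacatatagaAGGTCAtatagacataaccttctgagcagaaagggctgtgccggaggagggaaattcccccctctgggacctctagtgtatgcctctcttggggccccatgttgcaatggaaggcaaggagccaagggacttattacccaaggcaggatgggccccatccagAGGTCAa
AGGTCA was in 2 of 9 members' windows, those of Retn and Abhd5 (in Abhd5, which is not shown, 207 bases before the start on the opposite strand), against 14.1% of all windows. The TATA box letters TATAAA were in 0 of 9 and in 12.9% of all. The CRE half-site TGACG was in 2 of 9 and in 18.2% of all, and the E-box CACGTG in 1 of 9 and in 5.59% of all. No other motif was searched. A match is a run of letters and not a shown binding site, and no match says only that these letters are not in this window.

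Levels are given as FPKM (reads per length of transcript, set against the mapped reads of the same library), a unit that corrects for gene length and is relative to the total of the library. The deposited FPKM of a library summed to between 414248 and 824205. The 10 genes together made up 1.86 to 3.39% of this sum in white fat (median 3.04%), 1.32 to 1.74% in brown fat (median 1.66%) and 0.116 to 1.35% in aorta (median 0.623%), and at most 0.0745% in any library of another tissue. Tissue labels were checked on marker genes. In brown fat the thermogenic uncoupling protein Ucp1 lay between 4573 and 10083 FPKM. In white fat it was at or below 6.41 FPKM in 5 of 6 libraries, the exception being empagliflozin library 3 at 592 FPKM. In the V libraries the summed FPKM of 7 cardiomyocyte genes was 52263 to 59083 and that of 7 hepatocyte genes 0.09 to 0.57, whereas the sample labels name liver and the design text ventricle.

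The aorta libraries differed strongly among themselves before any member was considered. The sum of 7 smooth muscle genes was 499, 12702 and 5612 FPKM in empagliflozin aortas 1 to 3 and 470, 21207 and 19377 FPKM in vehicle aortas 1 to 3. Ucp1 was 7322, 168 and 4041 FPKM in empagliflozin aortas and 10224, 551 and 19.4 FPKM in vehicle aortas. Both libraries numbered 1 thus held low smooth muscle signal and Ucp1 in or above the range of brown fat, and empagliflozin library 3 had Ucp1 close below that range. The sum of 12 adipocyte genes that are not among the 10 was 25464, 5092 and 15023 FPKM in empagliflozin aortas and 31733, 3263 and 4383 FPKM in vehicle aortas. For the members, several limma results for aorta are therefore given with and without the libraries numbered 1. The scale relative to other adipocyte genes, the related gene lists and empagliflozin aorta against brown fat are not given without these libraries. In such bulk tissue, fewer cells of a type and less RNA per cell cannot be told apart.

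Adiponectin was the most abundant of the 10 in white fat. It measured 6942, 7999 and 5275 FPKM in empagliflozin white fat and 5350, 7133 and 3842 FPKM in vehicle white fat. In brown fat it was 1912, 1847 and 1575 FPKM with empagliflozin and 1781, 2512 and 1520 FPKM with vehicle. White fat thus lay above brown fat in every library, while the arms overlapped in both depots.

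Leptin was 456, 440 and 163 FPKM in empagliflozin white fat, against 356, 566 and 211 FPKM in vehicle white fat. In brown fat it was 172, 154 and 180 FPKM with empagliflozin and 142, 99.8 and 70.4 FPKM with vehicle, so all 3 brown fat libraries of treated rats lay above all 3 of the controls. In white fat the third library of each arm was the lowest, and the arms overlapped.

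Resistin was 935, 1447 and 964 FPKM in empagliflozin white fat, against 1637, 1868 and 1245 FPKM in vehicle white fat. In brown fat it was 194, 253 and 163 FPKM with empagliflozin and 274, 294 and 254 FPKM with vehicle. The arms did not overlap in brown fat, with the treated rats lower, although their highest value, 253 FPKM, came close to the lowest of the controls, 254 FPKM. In white fat, where resistin was several times more abundant, empagliflozin library 2 lay within the vehicle range.

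Adipsin was 2364, 3281 and 2360 FPKM in empagliflozin white fat and 3006, 2943 and 2607 FPKM in vehicle white fat. It was 868, 874 and 677 FPKM in empagliflozin brown fat and 578, 704 and 877 FPKM in vehicle brown fat. Like adiponectin and resistin, adipsin was higher in each white fat library than in each brown fat library.

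Perilipin 1 had similar levels in both depots. It was 1752, 1464 and 706 FPKM in empagliflozin white fat and 1939, 1366 and 1995 FPKM in vehicle white fat. The low value belongs to the white fat library that also carried Ucp1. In brown fat perilipin 1 was 1616, 1401 and 1558 FPKM with empagliflozin and 1582, 935 and 1535 FPKM with vehicle.

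Cidec measured 1409, 1578 and 1232 FPKM in empagliflozin white fat and 1450, 1789 and 1288 FPKM in vehicle white fat. In brown fat it was 721, 881 and 832 FPKM with empagliflozin and 825, 800 and 765 FPKM with vehicle. Its arms overlapped in both depots, and its lowest white fat library was above its highest brown fat library.

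The lipase Pnpla2 ran the other way between the depots. It was 1713, 2058 and 2158 FPKM in empagliflozin white fat and 1802, 2129 and 1655 FPKM in vehicle white fat. In brown fat, where it was the most abundant of the 10, it was 3636, 3802 and 3644 FPKM with empagliflozin and 3984, 3378 and 3853 FPKM with vehicle. Every brown fat library exceeded every white fat library.

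Lipe was 859, 795 and 509 FPKM in empagliflozin white fat and 833, 913 and 868 FPKM in vehicle white fat. In brown fat it was 1233, 1083 and 1117 FPKM with empagliflozin and 1147, 718 and 1090 FPKM with vehicle. Its brown fat range lay above its white fat range with empagliflozin, and the ranges overlapped with vehicle because of the second vehicle brown fat library.

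Mgll had similar levels in both depots. It was 354, 338 and 314 FPKM in empagliflozin white fat and 285, 447 and 381 FPKM in vehicle white fat, and 288, 250 and 274 FPKM in empagliflozin brown fat and 318, 266 and 369 FPKM in vehicle brown fat. Abhd5 was 86.7, 76.7 and 65.1 FPKM in empagliflozin white fat and 84.1, 87.6 and 138 FPKM in vehicle white fat. It was 39.9, 36.5 and 42.8 FPKM in empagliflozin brown fat and 36.1, 42.0 and 52.9 FPKM in vehicle brown fat. This coactivator was the least abundant member in each fat depot by mean FPKM in either arm, well below the lipase it activates.

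In aorta the members varied widely between libraries of the same arm. Adiponectin was 1655, 702 and 975 FPKM in empagliflozin aortas and 1815, 207 and 646 FPKM in vehicle aortas. Leptin was 141, 14.4 and 98.9 FPKM with empagliflozin and 70.7, 6.02 and 21.9 FPKM with vehicle. Resistin was 203, 323 and 106 FPKM with empagliflozin and 467, 59.6 and 211 FPKM with vehicle. For adiponectin, leptin and resistin alike, the lowest single value was that of vehicle library 2, which had the largest smooth muscle sum.

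Adipsin in aorta was 447, 534 and 338 FPKM with empagliflozin and 672, 108 and 621 FPKM with vehicle. Perilipin 1 was 1258, 217 and 831 FPKM with empagliflozin and 791, 50.7 and 234 FPKM with vehicle. Cidec was 825, 362 and 540 FPKM with empagliflozin and 1111, 61.7 and 263 FPKM with vehicle. The lowest value was again that of vehicle library 2 for these secreted and droplet proteins, and the arms overlapped.

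Pnpla2 in aorta was 3050, 396 and 1943 FPKM with empagliflozin and 3921, 199 and 391 FPKM with vehicle. Lipe was 1028, 156 and 588 FPKM with empagliflozin and 836, 45.03 and 167 FPKM with vehicle. Mgll was 242, 141 and 181 FPKM with empagliflozin and 251, 53.1 and 140 FPKM with vehicle. For each of these lipases, library 1 was the highest of its arm. Abhd5, the coactivator, was 42.3, 23.5 and 41.0 FPKM with empagliflozin and 27.9, 14.5 and 39.8 FPKM with vehicle.

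**Figure D1:**
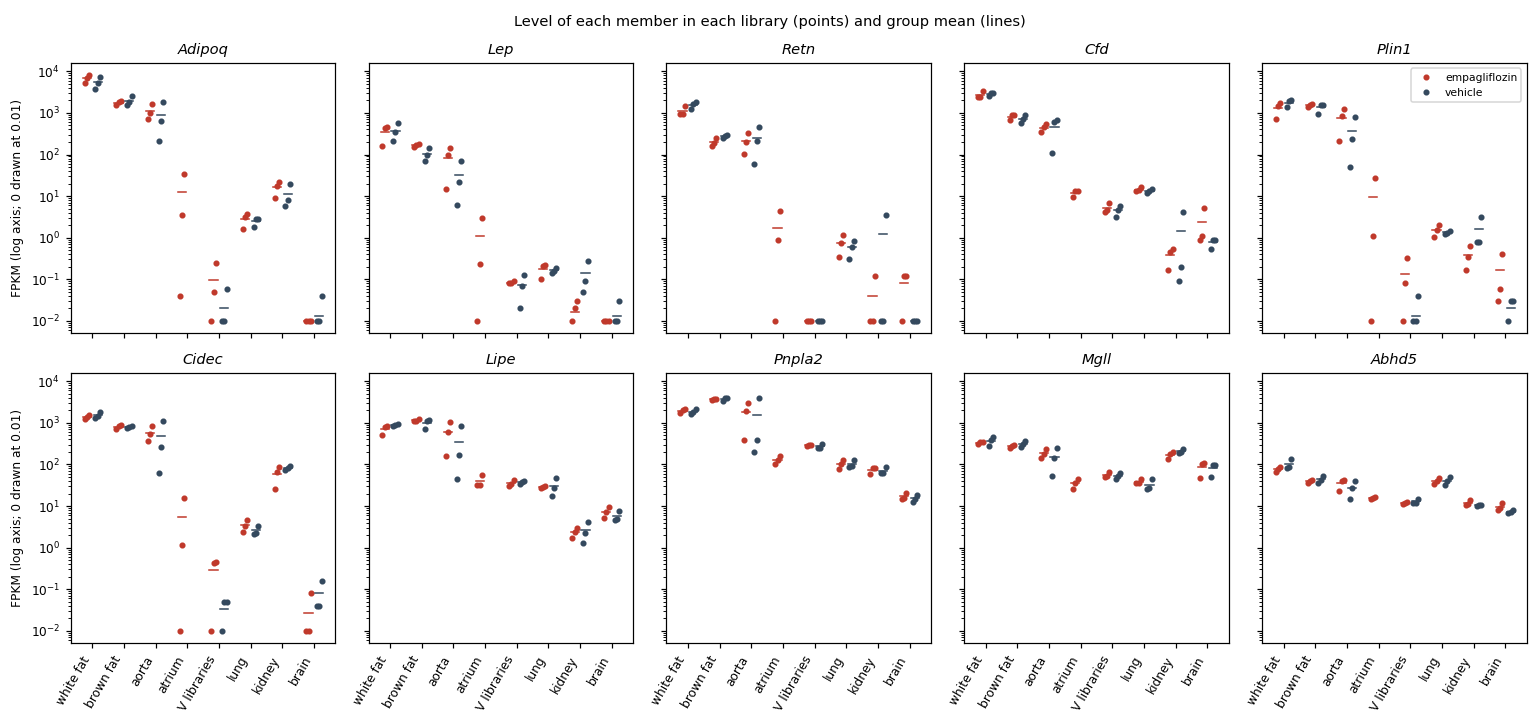
FPKM on a log axis (values of 0 drawn at 0.01) for each member in each library, with empagliflozin (red) left of vehicle (dark blue) in each tissue and short lines for the arithmetic mean of 3 libraries. Adiponectin and the other secreted and droplet genes were concentrated in white fat, brown fat and aorta, whereas Pnpla2, Lipe, Mgll and Abhd5 were measured in all tissues, and Cidec was also present in kidney at 26.2 to 90.0 FPKM.

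Outside fat and aorta the 10 genes separated into those that stayed near 0 and those that did not. Resistin was listed at 0 in all 6 V libraries, and leptin did not exceed 0.28 FPKM in kidney, lung, brain or V. Adiponectin was 21.9, 9.26 and 17.3 FPKM in empagliflozin kidneys and 5.76, 19.5 and 8.14 FPKM in vehicle kidneys. In lung it lay between 1.59 and 3.68 FPKM.

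Cidec in kidney was 64.7, 86.1 and 26.2 FPKM with empagliflozin and 90.0, 72.6 and 80.4 FPKM with vehicle, while its droplet partner perilipin 1 was 0.34, 0.62 and 0.17 FPKM with empagliflozin and 0.80, 3.16 and 0.79 FPKM with vehicle. The kidney therefore held Cidec without a matching amount of perilipin 1. Adiponectin too exceeded perilipin 1 in each kidney library. It was far below its level in fat, although kidney ranked 4th of the tissues by mean FPKM in both arms (16.2 with empagliflozin and 11.1 with vehicle). Vehicle kidney 2, which had the highest perilipin 1, also had the highest kidney values of resistin (3.60 FPKM), adipsin (4.14 FPKM), leptin (0.28 FPKM) and Lipe (4.23 FPKM). The same held for Pnpla2 (85.3 FPKM) and Mgll (233 FPKM). It did not hold for adiponectin (19.5 FPKM), Abhd5 (10.7 FPKM) or Cidec, whose 72.6 FPKM was the lowest of the vehicle kidneys. The 12 other adipocyte genes summed to 398 FPKM in that library and to 260 to 353 FPKM in the other 5 kidneys, and the part of this in the members' values was not tested.

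Lipolysis genes were present in every tissue. Pnpla2 in V was 282, 287 and 299 FPKM with empagliflozin and 255, 308 and 254 FPKM with vehicle, the highest level outside fat and aorta. In brain it was 12.2 to 20.6 FPKM, the lowest of the tissues. Mgll, which in brain breaks down the endocannabinoid 2-AG, was 108, 102 and 47.6 FPKM in empagliflozin brains and 51.3, 95.5 and 96.4 FPKM in vehicle brains. Kidney ranked above brain for Mgll, at 138 to 233 FPKM.

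Lipe was lowest in kidney at 1.32 to 4.23 FPKM, against 30.7 to 42.2 FPKM in V. Abhd5 reached 32.8 to 49.8 FPKM in lung, a range that overlapped brown fat, and adipsin in lung was 12.0 to 16.1 FPKM. In the 3 empagliflozin atria adiponectin was 33.2, 0.04 and 3.56 FPKM and perilipin 1 was 26.8, 0 and 1.12 FPKM. Only the first of these atria had more than 10 FPKM of either, and its Ucp1 of 96.7 FPKM was the highest of the 3.

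By mean FPKM, white fat was the highest tissue in both arms for adiponectin, leptin, resistin, adipsin, Cidec, Mgll and Abhd5, and brown fat for Pnpla2 and Lipe. Perilipin 1 was highest in brown fat with empagliflozin and in white fat with vehicle, and these neighbours overlapped in both arms. For leptin the white and brown fat ranges overlapped with empagliflozin and not with vehicle. For Mgll they overlapped with vehicle and not with empagliflozin. Brown fat and aorta overlapped in both arms for adiponectin, resistin, Cidec and Abhd5.

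Across all 45 libraries, on log2(FPKM + 1), the secreted and droplet genes varied together. Among these 6 genes Pearson's r ran from 0.818, for adipsin and Cidec, to 0.982, for leptin and perilipin 1. The r of Mgll with the other members ran from 0.446 with Abhd5 to 0.865 with Cidec. These are descriptions over 45 libraries from 8 tissues whose tissue of origin, and for fat-containing aortas their fat content, is shared by all the genes.

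The genes whose profile over the 45 libraries was most like the mean profile of the adipokine and droplet members were Mpo (r = 0.987), Trarg1 (0.981), Adrb3 (0.978), Lgals12 (0.975) and Prr32 (0.973). Adrb3 is the beta-3 adrenoceptor of fat cells. Those most like the mean profile of the lipolysis members were Ilvbl (0.975), Ppp2r5a (0.974), Pparg (0.971), Trarg1 (0.969) and Abhd15 (0.967). Pparg encodes the nuclear receptor that drives fat cell formation. These were the highest of 15299 genes compared, and no test was made.

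Whether empagliflozin altered these genes was asked tissue by tissue, with limma on log2(FPKM + 1) over all expressed genes and Benjamini-Hochberg adjustment. Of the 10 members, 0 passed an adjusted p of 0.05 in white fat, brown fat or aorta. Over all genes tested, 0.00785% passed in white fat, 0.0085% in brown fat and 0% in aorta, so few genes of any kind passed. At an unadjusted p under 0.05, limma listed 1106 of 12740 genes in white fat (8.68%), 419 of 11760 in brown fat (3.56%) and 146 of 13264 in aorta (1.1%). Among the members, Lep and Retn in brown fat were below this unadjusted level, and no member was in white fat or aorta.

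Log2 changes are stated here as the difference of empagliflozin minus vehicle from which the median of all genes tested was taken off, because that median was not 0 (-0.18 in white fat, 0.05 in brown fat, 0.18 in aorta and 0.10 in kidney). The p-values are those of the change before this shift. In brown fat, leptin was 0.69 ± 0.23 higher relative to the median (SE, n = 3 libraries per arm, limma adjusted p = 0.994) and resistin differed by -0.51 ± 0.17 (limma adjusted p = 0.994). The groups did not overlap for these 2 of 10 members, against 8.38% of all genes tested in brown fat. Before the shift, the leptin difference was 0.74, and it ranged from 0.50 without vehicle library 3 to 0.99 without vehicle library 1. The other 8 brown fat values lay between -0.28 (Mgll) and 0.19 (Lipe).

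In white fat the largest positive value was that of adiponectin, 0.51 ± 0.48, and the most negative were those of resistin, -0.34 ± 0.33, and perilipin 1, -0.34 ± 0.42. Abhd5 was at -0.23 ± 0.24. Before the shift, perilipin 1 was at -0.51 with all 6 libraries and at -0.12 without empagliflozin library 3, and adiponectin was at 0.33 and at 0.10 without vehicle library 3. Leptin was at -0.13, and at 0.36 without empagliflozin library 3 or 0.22 without vehicle library 2. The SEs were close in size to the relative values of adiponectin, resistin, perilipin 1 and Abhd5, and exceeded those of the other members. The arms overlapped for all 10 members, whereas 17.2% of all genes tested did not overlap there. The limma adjusted p of the members ran from 0.606 for Abhd5 to 0.913 for leptin. White fat libraries also differed between arms in 7 mesothelial genes, whose sum was 252, 169 and 320 FPKM with empagliflozin and 74.2, 110 and 15.02 FPKM with vehicle, and the brown adipocyte sum of empagliflozin library 3 was 2053 FPKM against 55.5 to 106 FPKM in the other 5. The part of these in the members' values was not tested.

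In aorta the difference was positive for all 10 members before the shift and for 9 of 10 relative to the median of all genes, resistin being at -0.11 ± 0.82. The highest values were 1.34 ± 1.12 for perilipin 1, 1.23 ± 1.11 for leptin and 1.11 ± 1.18 for Lipe. Without vehicle library 2 the differences before the shift were -0.06 for adiponectin, -0.58 for adipsin, -0.71 for resistin and -0.03 for Mgll. Perilipin 1 was then at 0.50, against 1.52 with all 6 aortas and 2.47 without vehicle library 1. The limma adjusted p was 0.999 for each of the 10, and 0 of 10 were free of overlap, against 6.75% of all genes. The 12 other adipocyte genes were also all positive before the shift, with a median log2 difference of 1.27 against 0.18 over all genes, and 7 smooth muscle genes had a median of -0.37. Without the libraries numbered 1, which leaves 2 libraries per arm, the members' differences before the shift ranged from 0.35 (Abhd5) to 1.95 (perilipin 1), with limma adjusted p from 0.920 to 0.945. Of the aortas kept, empagliflozin library 3 had Ucp1 close below the brown fat range. Both empagliflozin sums of the 12 other adipocyte genes exceeded both vehicle sums, and the part of this in the members' values was not tested.

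**Figure D2:**
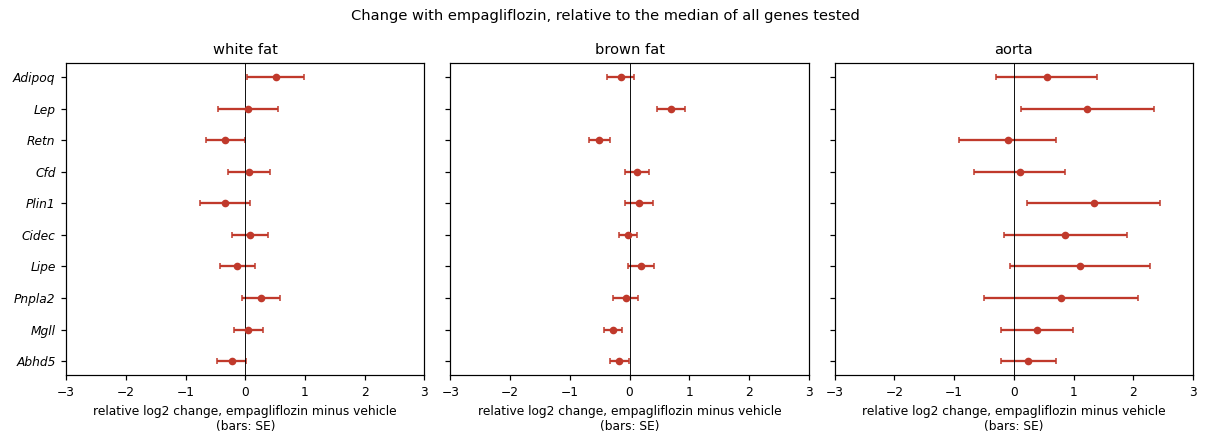
Log2 difference of empagliflozin minus vehicle for each member in white fat, brown fat and aorta, minus the median of all genes tested in that tissue, with bars of 1 SE from limma on 3 libraries per arm. Bars are shortest in brown fat, where leptin stands at 0.69 and resistin at -0.51, and longest in aorta, where the SE reached 1.29 for Pnpla2.

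In the other 4 tissues with both arms, 0 members passed either, out of 9 tested in kidney, 8 in lung and 5 each in brain and V after the filter on low values. limma called 0% of all genes in kidney, lung and brain and 0.0085% in V, and at an unadjusted p under 0.05 it listed 1504 genes in kidney, 1079 in lung, 360 in brain and 477 in V. Perilipin 1 in kidney did not overlap between arms and differed by -0.90 ± 0.36 relative to the median (limma adjusted p = 0.418), where 19.1% of all genes did not overlap. It passed the filter only through its vehicle mean of 1.58 FPKM, the empagliflozin mean being 0.377 FPKM. That vehicle mean rested on the library at 3.16 FPKM, the vehicle median being 0.80 FPKM. The lack of overlap and the difference are thus not independent of the filter. Abhd5 in brain was 8.07, 8.77 and 11.6 FPKM with empagliflozin and 6.75, 7.90 and 7.04 FPKM with vehicle, without overlap, a relative difference of 0.29 ± 0.16 (limma adjusted p = 0.982), where 5.92% of all genes did not overlap.

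The effect of empagliflozin was also compared between tissues in 1 fit of the 18 fat and aorta libraries. Of the 10 members, 0 differed between white and brown fat, between white fat and aorta or between brown fat and aorta, and 0% of 13877 genes passed in any of these. At an unadjusted p under 0.05, limma listed 262 genes for white against brown fat, 949 for white fat against aorta and 181 for brown fat against aorta. The lowest limma adjusted p of a member was 0.640, for perilipin 1 and Abhd5 between white fat and aorta, with differences before centring of -2.04 ± 1.11 and -0.84 ± 0.46. Over the alternatives these ranged from -2.99 to -1.02 and from -1.15 to -0.41, and without the aorta libraries numbered 1 they were -2.46 ± 0.89 and -0.76 ± 0.51. The leptin effect in white fat minus that in brown fat was -0.87 ± 1.15 (limma adjusted p = 1).

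A second scale set each member against the mean log2 level of the 12 other adipocyte genes of the same library, tested by an exact permutation test of 3 against 3, two-sided, which cannot give a p below 0.1. In brown fat 3 of 10 members did not overlap on this scale, against 10.9% of all genes. Leptin was higher with empagliflozin by 0.61, and resistin and Mgll were lower, at -0.58 and -0.36 (exact p = 0.1 each). In white fat 7 of 10 did not overlap, all lower with empagliflozin, but 56.8% of all genes did not overlap either, 56% being lower, since the mean log2 level of the adipocyte genes was 8.91, 8.97 and 9.08 in empagliflozin libraries and 8.47, 8.57 and 8.54 in vehicle libraries. In aorta 0 of 10 members were free of overlap, against 1.16% of all genes.

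Brown fat was then set against white fat within each arm, again with limma across all genes and in a fit with the aorta libraries of the same arm. Resistin was lower in brown fat in both arms, at -2.35 ± 0.41 in empagliflozin rats (limma adjusted p = 0.0163) and -2.16 ± 0.63 in vehicle rats (limma adjusted p = 0.0449), relative to the median of all genes, which was -0.09 and -0.35. Adipsin was lower at -1.62 ± 0.34 in empagliflozin rats (limma adjusted p = 0.0259), and it stood at -1.66 ± 0.66 in vehicle rats (limma adjusted p = 0.0825). Resistin and adipsin were the 2 of 10 members called with empagliflozin, where 5.03% of all genes were called, and resistin the 1 of 10 called with vehicle, where 8.93% were. Adiponectin missed the threshold at -1.81 ± 0.47 with empagliflozin (limma adjusted p = 0.0531) and at -1.13 ± 0.74 with vehicle (limma adjusted p = 0.194).

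The spread in these fits includes that of the aorta. With the 2 fat depots fitted alone, limma called 4 of 10 members in empagliflozin rats and 7 of 10 in vehicle rats, a setting chosen after the data were seen. The calls over all genes then numbered 3054 in empagliflozin rats and 6020 in vehicle rats, out of at most 13444 and 13335 genes tested. With the aorta in the fit they were 676 (5.03%) and 1191 (8.93%). The members' counts thus rose along with those of all genes. The 7 in vehicle rats were resistin, adiponectin, leptin, Abhd5, Cidec and adipsin, all lower in brown fat, and Pnpla2, which was 1.01 higher before centring (limma adjusted p = 0.0120). The call for resistin in vehicle rats did not survive leaving out any 1 of the 6 fat libraries, with limma adjusted p from 0.103 to 0.145. In empagliflozin rats the count of 2 became 0 without any 1 brown fat library or without white fat library 1 or 2, and 3 without white fat library 3. By ranges alone, 8 of 10 members did not overlap between depots in empagliflozin rats and 7 of 10 in vehicle rats, against 40.9% and 57.8% of all genes.

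**Figure D3:**
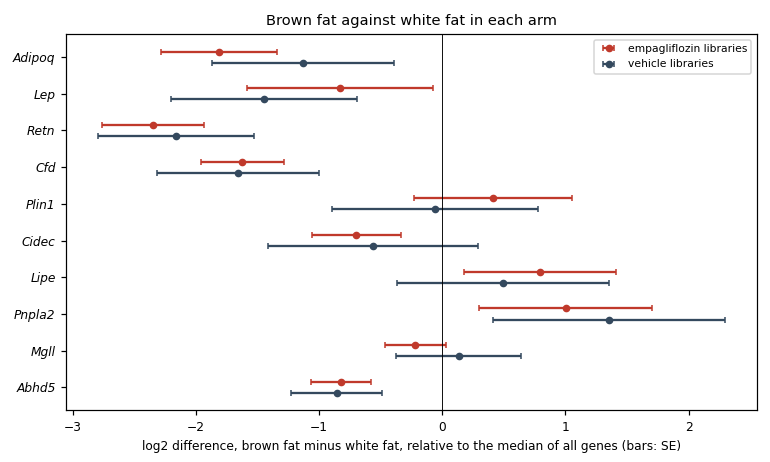
Log2 difference of brown fat minus white fat for each member, relative to the median of all genes tested, with bars of 1 SE from limma, in empagliflozin libraries (red, above) and vehicle libraries (dark blue, below). The 4 secreted proteins lie left of 0 in both arms, with resistin lowest at -2.35 and -2.16, while Pnpla2 lies at 1.0 and 1.36 and Lipe at 0.79 and 0.49.

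Aorta against white fat gave 4 of 10 members called in each arm, all lower in aorta, where 3.01% of all genes were called with empagliflozin (1.92% lower) and 3.67% with vehicle (3.33% lower). With empagliflozin these were adipsin (-2.69 ± 0.34 relative to the median, limma adjusted p = 0.00658), resistin (-2.59 ± 0.41, limma adjusted p = 0.0146), adiponectin (-2.75 ± 0.47, limma adjusted p = 0.0190) and Abhd5 (-1.19 ± 0.25, limma adjusted p = 0.0484). With vehicle they were leptin (-3.70 ± 0.75, limma adjusted p = 0.0270), Abhd5 (-1.69 ± 0.37, limma adjusted p = 0.0270), resistin (-2.85 ± 0.63, limma adjusted p = 0.0346) and adipsin (-2.74 ± 0.66, limma adjusted p = 0.0436). Without aorta library 1 the count was 7 with empagliflozin and 10 with vehicle, and with aorta and white fat fitted alone it was 0 in both arms. Over all genes the calls with empagliflozin numbered 404 of 13444 tested, then 964 without aorta library 1 and 30 with both tissues alone. With vehicle they numbered 489 of 13335 tested, then 2815 without aorta library 1 and 40 with both tissues alone. The count of members called was 1 without empagliflozin white fat library 1 or 2, and 2 without empagliflozin aorta library 3. It was 0 without any 1 vehicle white fat library. Over all genes, the calls with a library left out ranged from 85 to 1413 with empagliflozin and from 81 to 2815 with vehicle. Between aorta and brown fat, 0 of 10 were called in either arm, where 0.0818% of all genes were called with empagliflozin and 0.0075% with vehicle, and at an unadjusted p under 0.05 limma listed 1827 and 2769 genes. Without vehicle aorta library 1, 7 of 10 were lower in vehicle aorta than in vehicle brown fat. The calls over all genes were then 5721, in place of 1 of the 13335 tested with all vehicle libraries.

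The balance between the lipase Pnpla2 and adiponectin separated the depots in every library, a ratio chosen after the values were seen. Pnpla2 over adiponectin was 1.90, 2.06 and 2.31 in empagliflozin brown fat and 2.24, 1.35 and 2.54 in vehicle brown fat, and it was 0.247, 0.257 and 0.409 in empagliflozin white fat and 0.337, 0.299 and 0.431 in vehicle white fat. In aorta it was 1.84, 0.565 and 1.99 with empagliflozin and 2.16, 0.958 and 0.605 with vehicle. The 3 aorta libraries with the most Ucp1 had ratios in the range of brown fat, and the other 3 lay between the depots.

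**Figure D4:**
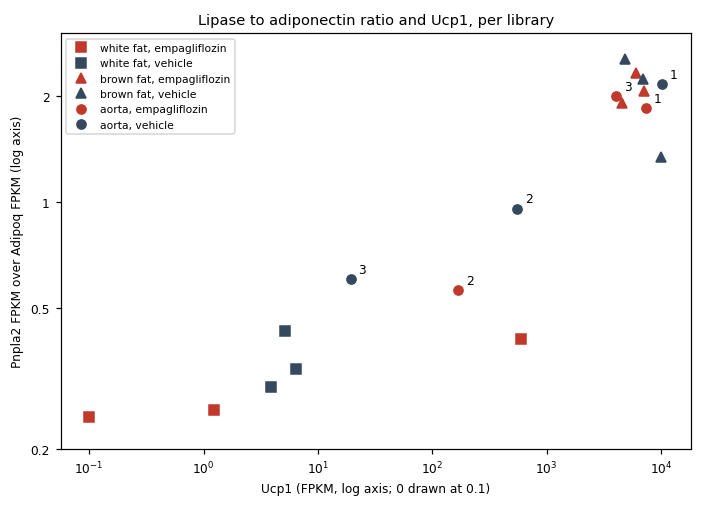
Ratio of Pnpla2 FPKM to Adipoq FPKM against Ucp1 FPKM, both on log axes (Ucp1 of 0 drawn at 0.1), 1 point per library of white fat (squares), brown fat (triangles) and aorta (circles with library numbers), empagliflozin in red and vehicle in dark blue. White fat lies between 0.247 and 0.431 and brown fat between 1.35 and 2.54, and the 6 aorta libraries between 0.565 and 2.16.

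Lists of related genes were read in the same fits. In the 7 tissues with both arms, 0 genes of any list passed in either direction, over lists of 15 other adipokines and adipose secreted proteins, 9 adipokine receptors and complement proteins around factor D, 12 other lipases and their regulators, 16 other droplet proteins and 21 genes of hormone signals to lipolysis. In white fat the lowest p in these lists belonged to Pnpla3, a lipase-like protein of lipid droplets, at 2.70 ± 0.36 relative to the median (limma adjusted p = 0.325). In brown fat it belonged to Adrb3, the beta-3 adrenoceptor, at 0.80 ± 0.26 (limma adjusted p = 0.994), and in aorta to lipoprotein lipase Lpl at 1.80 ± 1.11 (limma adjusted p = 0.999).

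The median log2 change of the other adipokines before the shift was -0.26 in white fat, against -0.18 over all genes, and -0.13 in brown fat, against 0.05. In aorta the other droplet proteins had a median of 0.46 and the lipases a median of 0.73, against 0.18 over all genes. The lipase list shares Lpl, Aqp7 and Fabp4 with the 12 adipocyte genes. In the same aortas the adipocyte markers differed as stated above.

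Between the depots, the related lists held called genes. Of 13 other adipokines tested, 0 were higher and 7 lower in brown fat than in white fat with empagliflozin, and 1 was higher and 4 were lower with vehicle. Of all genes, 3.21% were lower with empagliflozin and 6.2% with vehicle. With 1 fat library left out, the calls over all genes in both directions ranged from 65 to 1212 with empagliflozin and from 134 to 437 with vehicle. Vaspin (Serpina12) was lower at -4.20 ± 0.30 with empagliflozin (limma adjusted p = 0.000306) and at -4.25 ± 0.42 with vehicle (limma adjusted p = 0.00229), relative to the median. Nampt, the enzyme of NAD salvage also known as visfatin, was the 1 higher gene with vehicle, at 2.00 ± 0.22 (limma adjusted p = 0.00597).

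Complement factor B (Cfb), the substrate that adipsin cleaves, was lower in brown fat as adipsin was, at -3.98 ± 0.36 with empagliflozin (limma adjusted p = 0.00125) and -3.38 ± 0.78 with vehicle (limma adjusted p = 0.0266). It was the 1 of 9 genes called in its list in each arm. The share of all genes called was 5.03% with empagliflozin and 8.93% with vehicle. Among 11 other lipases and regulators, 1 was lower with empagliflozin and 2 with vehicle, against 3.21% and 6.2% of all genes. Hilpda, an inhibitor of Pnpla2, was lower in both arms, at -2.14 ± 0.46 with empagliflozin (limma adjusted p = 0.0300) and -2.21 ± 0.37 with vehicle (limma adjusted p = 0.00829).

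Of 14 other droplet proteins, 0 were called with empagliflozin and 1 higher and 1 lower with vehicle, Cidea, the brown fat relative of Cidec, being higher at 6.44 ± 1.37 (limma adjusted p = 0.0324). In the hormone signal list, 1 gene was higher and 2 lower of 20 tested with empagliflozin, and 0 were higher and 2 lower of 21 with vehicle. In either direction, 5.03% of all genes were called with empagliflozin and 8.93% with vehicle, and neither list was tested against these shares. Ptger3, a prostaglandin receptor that restrains lipolysis, was lower in both arms, at -1.44 ± 0.26 with empagliflozin (limma adjusted p = 0.0168) and -1.77 ± 0.46 with vehicle (limma adjusted p = 0.0291). Prkaca, the catalytic subunit of protein kinase A, was the 1 higher gene with empagliflozin, at 1.27 ± 0.27 (limma adjusted p = 0.0443).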

How the data were processed

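Per the labels' protocols, libraries were read from a single end over 50 bases. Per the submitters' processing notes, HISAT2 2.0.4, Bowtie2 2.2.5 and the build Rnor_6.0 are named, and which program counted reads is not given there. The files hold deposited FPKM per gene and library, made by the authors. FPKM are relative to the total of a library and carry no read depth, so no counting interval was made, and a 0 can be a failed estimate. Groups follow the labels, 3 libraries each, which the design text describes as 3 rats per arm.

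Each comparison was fitted with limma 3.58.1 in R 4.3.3 (empirical Bayes with an intensity trend, two-sided) on log2(FPKM + 1), which understates changes of low genes. Genes averaging under 1 FPKM in all groups of a fit were left out. P-values were Benjamini-Hochberg adjusted over all genes tested, at a threshold of 0.05. Tissues were fitted alone for the effect of empagliflozin, white fat, brown fat and aorta together (18 libraries) for differences of effect, and each arm's 9 libraries for differences between tissues. None of these main fits had a term for the rat. Ratios to adipocyte genes used an exact permutation test (scipy 1.17.1). The members, marker lists and related lists were chosen with earlier results of these data known. Named genes are the 10 members, the 3 genes with the lowest p of each related list (the text gives some of them) and the 5 genes most alike to each mean profile.

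The fit was tested on simulated data with known changes in 200 genes. For a log2 change of 2, it found 94% in brown fat, 73% in white fat and 0% in aorta, and for a change of 1 it found 54% in brown fat, 19% in white fat and 0% in aorta. Replicate numbers come from the titles. In lung, libraries of the same number in the 2 arms deviated together (r = 0.227, 0.303 and 0.346). The lung values given are from the fit without pairs, and pairing was tried there only as the replicate block. Alternatives were another pseudocount (0.1), no filter and a filter of 5 FPKM, quantile and median-ratio scaling, a replicate block, all 15 groups in 1 fit, an animal effect, each library left out and the aorta libraries numbered 1 left out. Coordinates of promoters are those of the RefSeq table, on GRCr8, and were not compared with the files' build.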

Additional observations from a re-analysis of the deposited data

How the results depend on the processing

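Of the arm comparisons, 0 members passed in any of the 7 tissues under each alternative tried. Over all genes, the calls in kidney numbered 0, but 263 with all 15 groups in 1 fit and 636 without empagliflozin kidney 2; aorta gave 209, brain 191, white fat 134 and lung 227 in the fit of all 15 groups, against 0, 0, 1 and 0. The contrasts between tissues depended more on the settings. Brown against white fat in empagliflozin rats had 2 members called, 1 without a filter, 1 with the replicate block, 3 with a mean of at least 5 FPKM or with quantile normalization (adiponectin added, limma adjusted p = 0.0354 and 0.0239), 4 with the depots fitted alone, and 0 to 3 with a library left out. In vehicle rats it had 1, then 0 without a filter, 2 with quantile normalization, 0 with median-ratio scaling, 7 with the depots alone, 1 with the replicate block (resistin lost, limma adjusted p = 0.0570, and Abhd5 gained, limma adjusted p = 0.0482), and 0 with any of the 6 fat libraries left out. Aorta against white fat in empagliflozin rats had 4, then 2 without a filter, 2 with the replicate block, 0 with both tissues alone, 7 without aorta library 1 and 1 to 7 over all libraries left out. In vehicle rats it had 4, then 0 without a filter, 7 with quantile normalization, 0 with median-ratio scaling, 2 with the replicate block, 0 with both tissues alone, 10 without aorta library 1 and 0 to 10 over all libraries left out. Aorta against brown fat in vehicle rats had 0, and 7 without aorta library 1 (0 to 7). The calls over all genes moved with the settings too. Apart from libraries left out, brown against white fat gave 383 to 3054 with empagliflozin and 877 to 6020 with vehicle. Aorta against white fat gave 30 to 573 with empagliflozin and 40 to 555 with vehicle, the highest with quantile normalization. On the scale of the adipocyte genes, the 7 white fat members without overlap became 2 with the median of those genes in place of their mean. With a library left out they were 7 to 8, the brown fat count of 3 reached 5 and the aorta count of 0 reached 3. The share of all genes without overlap was not computed under these settings, so nothing particular to the members can be read from these counts. Leaving a library out makes a lack of overlap easier, and the cause of the other shifts was not tested. Outside lung the replicate numbers did not pair the libraries of the 2 arms by correlation (aorta r = 0.744, 0.245 and -0.187), and in lung the block called 0 members. That check compares different rats within a tissue, so it does not bear on tissues taken from the same rat. Depth is unknown, and 3 libraries per group limit what can be seen, most in aorta.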

Other observations

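Myeloperoxidase (Mpo), known as a granule enzyme of neutrophils, was the gene whose profile over the 45 libraries came closest to that of the adipokine and droplet genes. It lay at 91.0 to 133 FPKM in brown fat, 102 to 153 FPKM in white fat and 5.73 to 115 FPKM in aorta, and at 0.07 to 0.27 FPKM in lung. Csf3r and S100a8, other genes known from neutrophils, had the opposite order. Csf3r, the receptor of the growth factor G-CSF, was 4.30 to 8.78 FPKM in lung, against 0.18 to 1.19 FPKM in brown fat and 0.46 to 0.81 FPKM in white fat. S100a8, a calcium-binding protein of neutrophils, was 28.6 to 66.3 FPKM in lung, against 1.05 to 13.5 FPKM in brown fat and 1.46 to 7.19 FPKM in white fat. Csf3r and S100a8 were looked up after the profile of Mpo had been seen, and no test was made. Values of S100a9, the other gene of the neutrophil marker list, are not given here.

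Cidec was 26.2 to 90.0 FPKM in kidney, where Plin1 was at or below 3.16 FPKM. In the white fat, brown fat and aorta libraries, Cidec over Plin1 lay between 0.446 and 1.74. In lung this ratio was 2.15, 2.25 and 2.24 with empagliflozin and 1.49, 1.79 and 2.56 with vehicle.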
